A study of Mus musculus with 31 samples.

Results

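The imprinted Dlk1-Meg3 domain of mouse chromosome 12 was described through 7 of its genes, Dlk1, Meg3, Rian, Mirg, Rtl1, Dio3 and Begain, which were chosen by name from the 38283 genes listed in each of 2 expression tables. By symbol, 5 of the 7 were found. Rian and Mirg carry other names in the tables (AC152063.2 and mmu-mir-410) and were matched through their gene identifiers, ENSMUSG00000097451 and ENSMUSG00000097391. Expression was measured by RNA-seq in sorted pancreatic cells of the mouse strain C57BL/6, taken 2 days after birth, and 21 libraries had values. YFP-positive cells are the mesenchymal fraction and YFP-negative cells the non-mesenchymal fraction, which holds the acinar, endocrine and other cells. Values are FPKM, fragments scaled by transcript length and by the mapped fragments of the library, so levels are per length and can be set side by side between genes.

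In the H19DMD table, control mice were H19DMD+/+; Nkx3.2+/Cre and mutant mice H19DMDfl/+; Nkx3.2+/Cre, with 3 control and 4 mutant libraries of each fraction. H19DMD is the control region of the imprinted Igf2 and H19 genes. In the Igf2 table, control mice were Igf2+/+; Nkx3.2Cre/+ and mutant mice Igf2+/fl; Nkx3.2Cre/+, and the non-mesenchymal fraction was read in 4 control and 3 mutant libraries. Every group, controls included, carried the Nkx3.2-Cre allele, in which the promoter of a gene of the early gut and pancreatic mesenchyme drives the recombinase. The mesenchymal libraries of the Igf2 model were not analysed here. Nothing in the labels says that replicates came from separate animals, so p-values measure the spread between these libraries, part of which may be technical. The tables were normalised separately and no test crosses them.

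The domain is a standard example of genomic imprinting. Its protein-coding genes Dlk1, Rtl1 and Dio3 are read mainly from the paternal copy, and its long non-coding RNAs Meg3, Rian and Mirg from the maternal copy, where they also carry many small nucleolar RNAs and microRNAs. Dlk1, also called preadipocyte factor, is a membrane protein with EGF-like repeats that resembles Notch ligands and is known as an inhibitor of adipocyte differentiation, and Meg3 and its microRNAs are also known from islet beta cells. The FPKM values add up both parental copies and give no information on which copy was read.

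In GENCODE M21 (GRCm38) the 7 genes span 1249 kb. From left to right, Begain lies at chr12:109032187-109068217 on the minus strand, Dlk1 at chr12:109452823-109463336 on the plus strand and Meg3 at chr12:109541001-109571726 on the plus strand. Rtl1 follows at chr12:109589193-109600330 on the minus strand, Rian at chr12:109603940-109661716 on the plus strand, Mirg at chr12:109729764-109749460 on the plus strand (its entry in the tables spans the shorter chr12:109734981-109749455) and Dio3 at chr12:110279068-110281097 on the plus strand. The gap from the end of Dlk1 to the start of Meg3 is 77.7 kb.

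**Figure D1:**
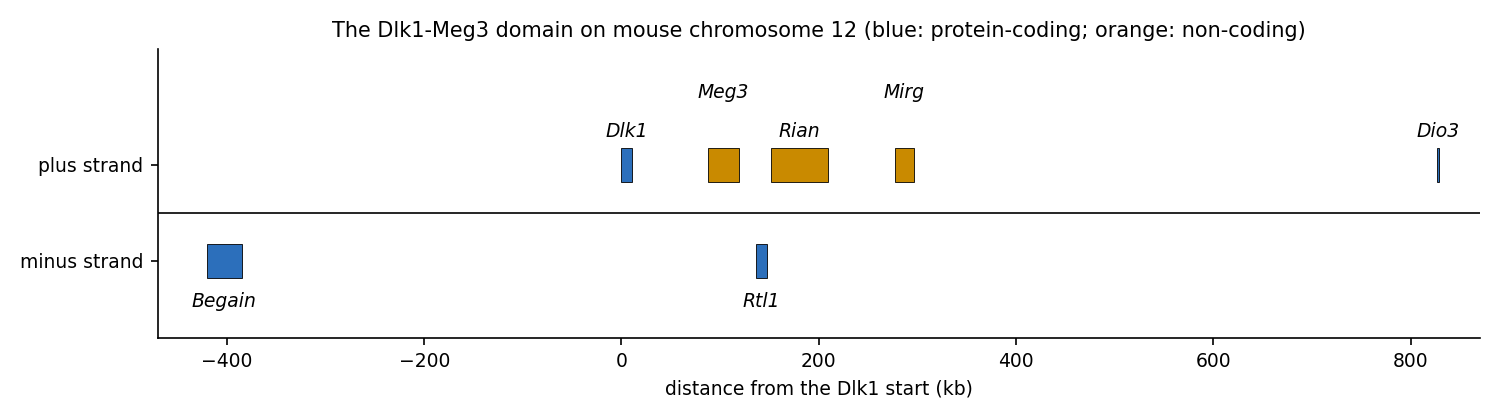
Map of the 7 genes by distance from the start of Dlk1 (horizontal axis, kb), with the strand on the vertical axis, protein-coding genes in blue and non-coding genes in orange. The 3 non-coding genes lie to the right of Dlk1 on its strand, and Rtl1 lies on the opposite strand between Meg3 and Rian.

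The promoters of Dlk1 and Meg3 are shown because these genes had the highest levels of the domain in mesenchymal cells and lay lower in non-mesenchymal cells. They are RefSeq windows of the build GRCm38.p6 that run from 250 bases before to 50 bases after the start, read 5′ to 3′ on the plus strand, at chr12:109452573-109452872 for Dlk1 and chr12:109540746-109541045 for Meg3. Capitals mark matches, on either strand, to any of 5 motifs: the TATA box, GC box, CCAAT box, E-box and cAMP response element.
Dlk1 promoter: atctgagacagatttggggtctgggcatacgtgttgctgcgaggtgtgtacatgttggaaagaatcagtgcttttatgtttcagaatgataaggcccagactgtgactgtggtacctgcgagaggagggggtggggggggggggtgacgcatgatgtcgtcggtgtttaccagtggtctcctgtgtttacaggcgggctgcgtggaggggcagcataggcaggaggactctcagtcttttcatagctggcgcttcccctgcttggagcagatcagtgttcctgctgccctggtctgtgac
Meg3 promoter: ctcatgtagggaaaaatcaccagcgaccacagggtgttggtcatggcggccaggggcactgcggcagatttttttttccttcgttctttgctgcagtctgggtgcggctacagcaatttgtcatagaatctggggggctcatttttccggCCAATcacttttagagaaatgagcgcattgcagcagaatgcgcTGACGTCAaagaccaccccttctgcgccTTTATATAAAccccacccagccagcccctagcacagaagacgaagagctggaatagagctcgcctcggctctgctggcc
The printed Meg3 window held a cAMP response element, a CCAAT box and a TATA box, whose 2 matches on opposite strands overlap in 1 run of capitals. Of 32544 promoter windows of the same length, 1.8% held the cAMP response element, searched as TGACGTCA. The CCAAT box, searched by the 5 letters of its name, was in 37.4% of windows and the TATA box, searched as TATAAA, in 13.6%. The GC box, searched as GGGCGG, was in 35.9% of windows, and the E-box, searched as CACGTG, in 7.17%. None of these letter strings was in the Dlk1 window. The Dlk1 window held 9 CpG dinucleotides and the printed Meg3 window 13. RefSeq gives a second Meg3 window, at chr12:109545148-109545447, which held none of the 5 motifs and 1 CpG dinucleotide. A match is a description of the sequence and not a measured binding site.

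RefSeq lists 61 microRNA genes from the start of Dlk1 to the end of Dio3, of which 57 are on the plus strand, that of Dlk1 and Meg3. Mirg holds 14 of them, Rian 3 and Meg3 2. Within Rtl1 lie 7, of which 6 are on the strand opposite to Rtl1, and 35 lie within none of these 4 genes. The 6 opposite to Rtl1 are shown because their mature forms are exact reverse complements of the Rtl1 transcript, the feature by which they are known to direct its cleavage. The reverse complement of 11 mature microRNAs was found in the Rtl1 transcript, and 1 mature form of each of the 6 genes is printed 5′ to 3′ (RefSeq, GRCm38.p6), with the seed, bases 2 to 8, in capitals.
mmu-miR-431-5p: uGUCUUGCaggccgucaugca
mmu-miR-433-3p: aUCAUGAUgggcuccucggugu
mmu-miR-127-3p: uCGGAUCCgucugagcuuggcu
mmu-miR-434-3p: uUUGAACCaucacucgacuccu
mmu-miR-432: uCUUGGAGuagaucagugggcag
mmu-miR-136-5p: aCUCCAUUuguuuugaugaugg
Each of these 6 seeds occurs once among the 113 mature microRNAs of the interval, which have 104 distinct seeds. Reads from Rtl1 and from the antisense transcript that makes these microRNAs cannot be told apart in these values, since the use of strand in counting is not given in the sources used here. The same holds for Meg3 and an annotated antisense gene.

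Dlk1 had the largest ratio of mean levels between the fractions among the members for which a ratio could be formed. In mesenchymal controls its level was 615, 606 and 566 FPKM, with a mean of 596 ± 26.3 (SD, n = 3). In non-mesenchymal controls it was 21.7, 13.3 and 22.8 FPKM (19.2 ± 5.20, n = 3). All 3 mesenchymal libraries lay above all 3 non-mesenchymal ones, with means 31.0-fold apart. In mutants the mesenchymal libraries held 798, 657, 634 and 698 FPKM (696 ± 72.5, n = 4) and the non-mesenchymal ones 25.3, 27.9, 12.3 and 42.2 FPKM (26.9 ± 12.3, n = 4), with no overlap and means 25.9-fold apart. In bulk libraries such as these, fewer expressing cells and less RNA per cell cannot be told apart.

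Meg3, the long non-coding RNA of the maternal copy, was abundant in both fractions. In controls it stood at 555, 390 and 525 FPKM in mesenchymal cells (490 ± 87.8, n = 3) and at 97.4, 84.5 and 139 FPKM in non-mesenchymal cells (107 ± 28.6, n = 3), a 4.57-fold ratio of means. In mutants it stood at 360, 521, 393 and 680 FPKM in mesenchymal cells (488 ± 145, n = 4) and at 111, 202, 148 and 180 FPKM in non-mesenchymal cells (160 ± 39.5, n = 4), a 3.05-fold ratio. The fractions did not overlap in either genotype, and the mesenchymal mutants spread widest.

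Rian, a long non-coding RNA that hosts small nucleolar RNAs, ranked below Dlk1 and Meg3 in mesenchymal cells and between Meg3 and Dlk1 in non-mesenchymal cells. Its control libraries held 329, 287 and 308 FPKM in mesenchymal cells (308 ± 20.7, n = 3) against 90.9, 96.9 and 102 FPKM in non-mesenchymal cells (96.5 ± 5.40, n = 3), 3.19-fold apart. Its mutant libraries held 195, 353, 368 and 459 FPKM (344 ± 110, n = 4) against 98.5, 136, 129 and 123 FPKM (122 ± 16.3, n = 4), 2.83-fold apart. No mesenchymal library was as low as any non-mesenchymal one. Mirg, the host of the microRNA cluster furthest from Dlk1, had a mean level of 34.9 FPKM in mesenchymal controls. Its level per length, and its proportion of Meg3 given later, rest on the shorter Mirg locus of the tables. It reached 41.1, 32.9 and 30.7 FPKM in mesenchymal controls and 4.18, 5.72 and 8.31 FPKM in non-mesenchymal controls, a 5.75-fold ratio of means without overlap. In mutants its level was 21.2, 34.0, 31.4 and 49.3 FPKM against 2.07, 9.66, 6.89 and 11.1 FPKM, a 4.58-fold ratio, also without overlap.

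Rtl1, a gene derived from a retrotransposon and known from the placenta, had low levels throughout. Mesenchymal controls held 21.6, 10.8 and 16.5 FPKM and non-mesenchymal controls 2.35, 1.04 and 3.79 FPKM, a 6.81-fold ratio of means. Mesenchymal mutants held 9.88, 16.8, 17.6 and 28.3 FPKM and non-mesenchymal mutants 2.03, 3.57, 2.58 and 3.23 FPKM, a 6.37-fold ratio. Both pairs of groups were separate, with the limit that antisense reads may be part of these values. Begain, which encodes a protein associated with guanylate kinase at synapses, was read at 5.90, 3.50 and 6.50 FPKM in mesenchymal controls and was listed at 0 in all 3 non-mesenchymal controls, so no fold is given. In mutants it was read at 6.62, 6.18, 2.56 and 7.25 FPKM in mesenchymal cells and at 0.230, 0.482, 0.183 and 0.562 FPKM in non-mesenchymal cells, a 15.5-fold ratio of means. Dio3, the deiodinase that inactivates thyroid hormone, was near the floor: 0, 0.797 and 1.25 FPKM in mesenchymal controls, 0.706, 3.43, 0.380 and 0.645 FPKM in mesenchymal mutants, and above 0 in only 1 of 3 non-mesenchymal controls (0.184 FPKM) and 1 of 4 non-mesenchymal mutants (0.381 FPKM). Its fractions overlapped in both genotypes.

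**Figure D2:**
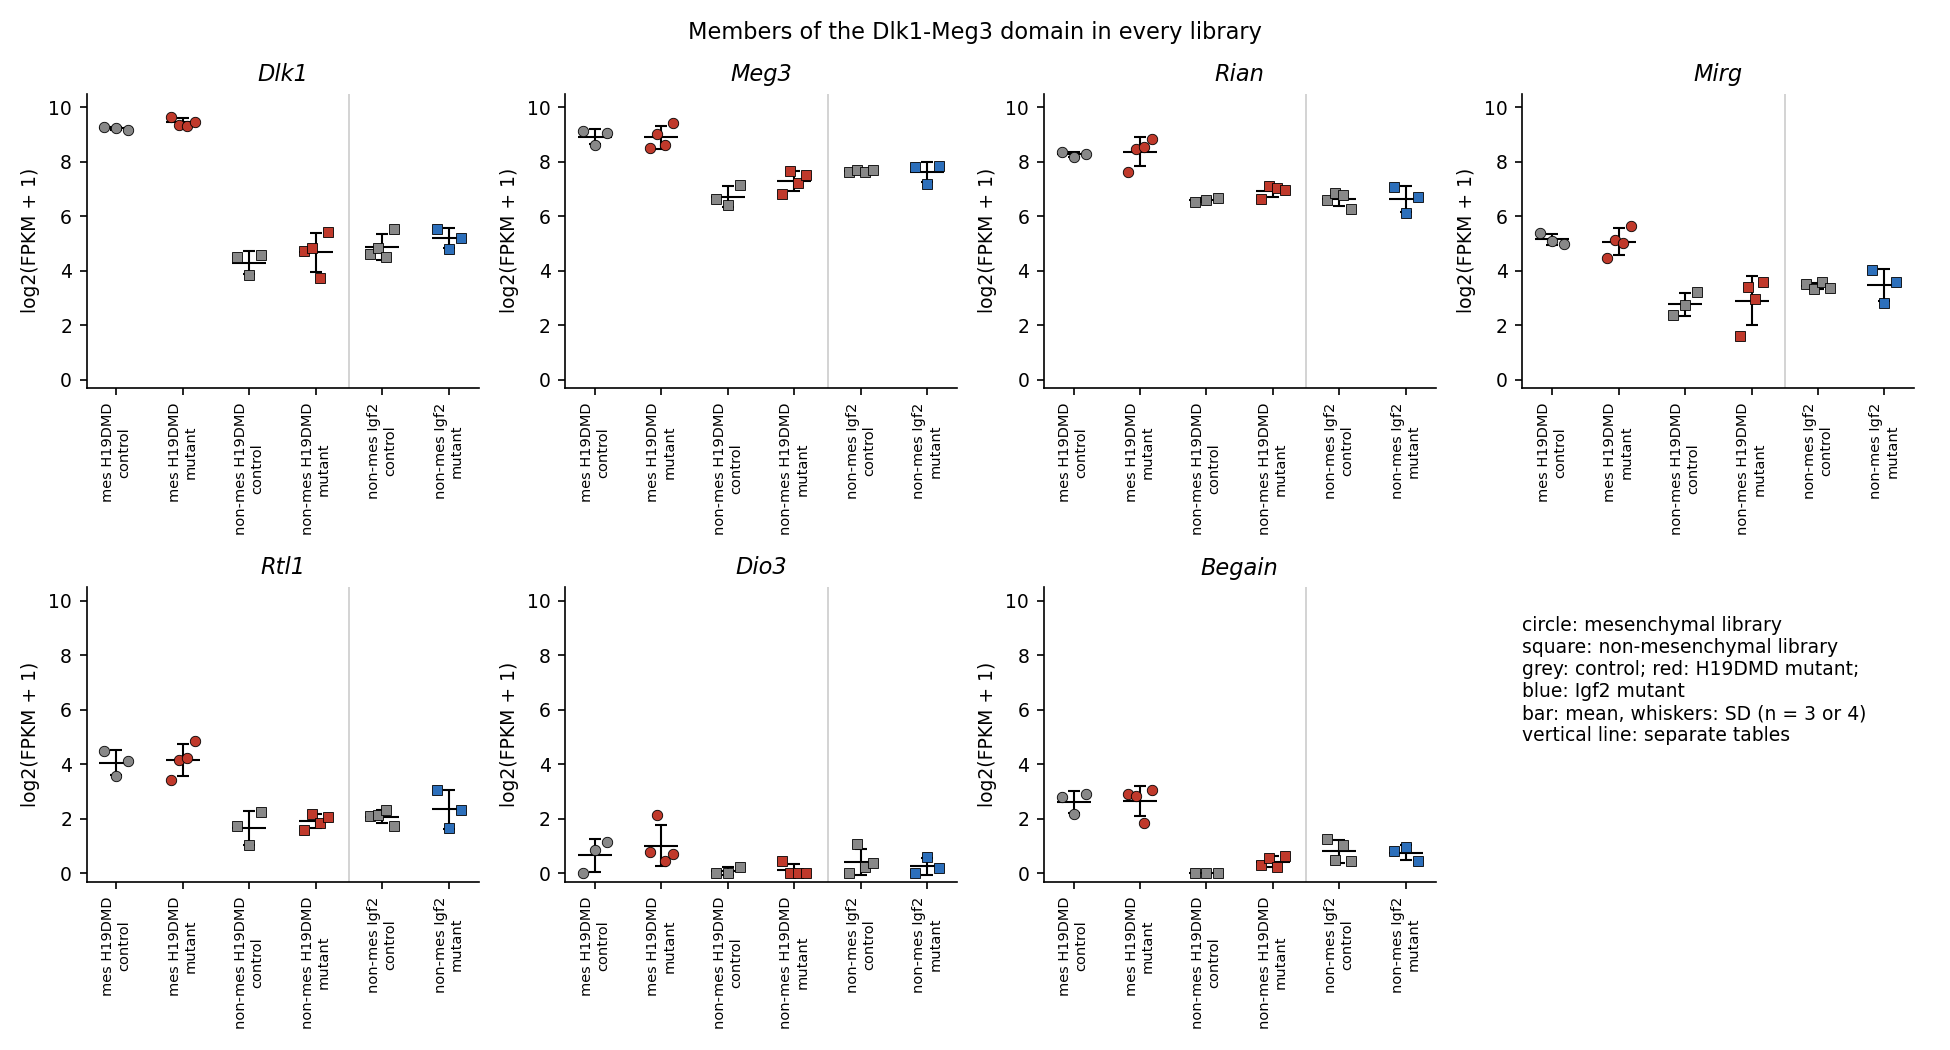
Level of each gene in every library, as log2(FPKM + 1) on the vertical axis, by group, with the group mean (bar) and SD (whiskers). Circles are mesenchymal and squares non-mesenchymal libraries, and a vertical line separates the 2 tables. Dlk1 ranges from at least 566 FPKM in mesenchymal to at most 42.2 FPKM in non-mesenchymal libraries of the H19DMD table.

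The fractions were tested with limma on log2(FPKM + 1) across all genes that averaged 1 FPKM or more, with Benjamini-Hochberg adjustment. In controls, 6 of the 7 members were tested, since Dio3 missed the filter. Begain passed it through its mesenchymal libraries alone in both genotypes and so had to differ, and its values are a description with no test. The other 5 averaged at least 1 FPKM in each fraction, and all 5 were called higher in mesenchymal cells. Of the 13404 genes that met this in both fractions, 10.9% were called higher and 17% either way, and of all 16732 tested genes 12.4% were called higher and 22.6% either way. The log2 difference was 4.92 ± 0.24 (SE) for Dlk1 (limma adjusted p = 0.000122), 2.20 ± 0.26 for Meg3 (adjusted p = 0.00218), 1.66 ± 0.15 for Rian (adjusted p = 0.000827) and 2.37 ± 0.27 for Mirg (adjusted p = 0.00187). For Rtl1 it was 2.39 ± 0.40 (limma adjusted p = 0.0087) and for Begain 2.62 ± 0.30. The size for Begain depends on the pseudocount: with 0.1 in place of 1 it was 5.71 in controls and 3.62 in mutants, against 4.98 and 4.81 for Dlk1. The groups of Dlk1, Meg3, Rian, Mirg and Rtl1 did not overlap, as was true of 39.9% of all tested genes, 22.4% in the higher direction. The exact two-sided permutation p was 0.1 for each, the smallest that 3 against 3 libraries allow.

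In mutants these 5 genes were likewise called higher in mesenchymal cells. Of the 13401 genes that averaged at least 1 FPKM in both fractions, 12.2% were called higher and 23.6% either way, and of all 16767 tested genes 13.5% were called higher and 28.6% either way. The log2 difference of Dlk1 was 4.76 ± 0.33 (limma adjusted p = 2.08e-05) and that of Meg3 1.59 ± 0.26 (limma adjusted p = 0.00249). Rian differed by 1.44 ± 0.26 (limma adjusted p = 0.00428), Mirg by 2.17 ± 0.45 (limma adjusted p = 0.00809), Rtl1 by 2.24 ± 0.30 (limma adjusted p = 0.000858) and Begain, again as a description, by 2.22 ± 0.31. The exact permutation p of each of the 5 was 0.0286, the smallest that 4 against 4 libraries allow, and 31% of all tested genes likewise had groups without overlap, 14.4% in the higher direction. Dio3 had an exact permutation p of 0.4 in controls and 0.0571 in mutants.

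**Figure D3:**
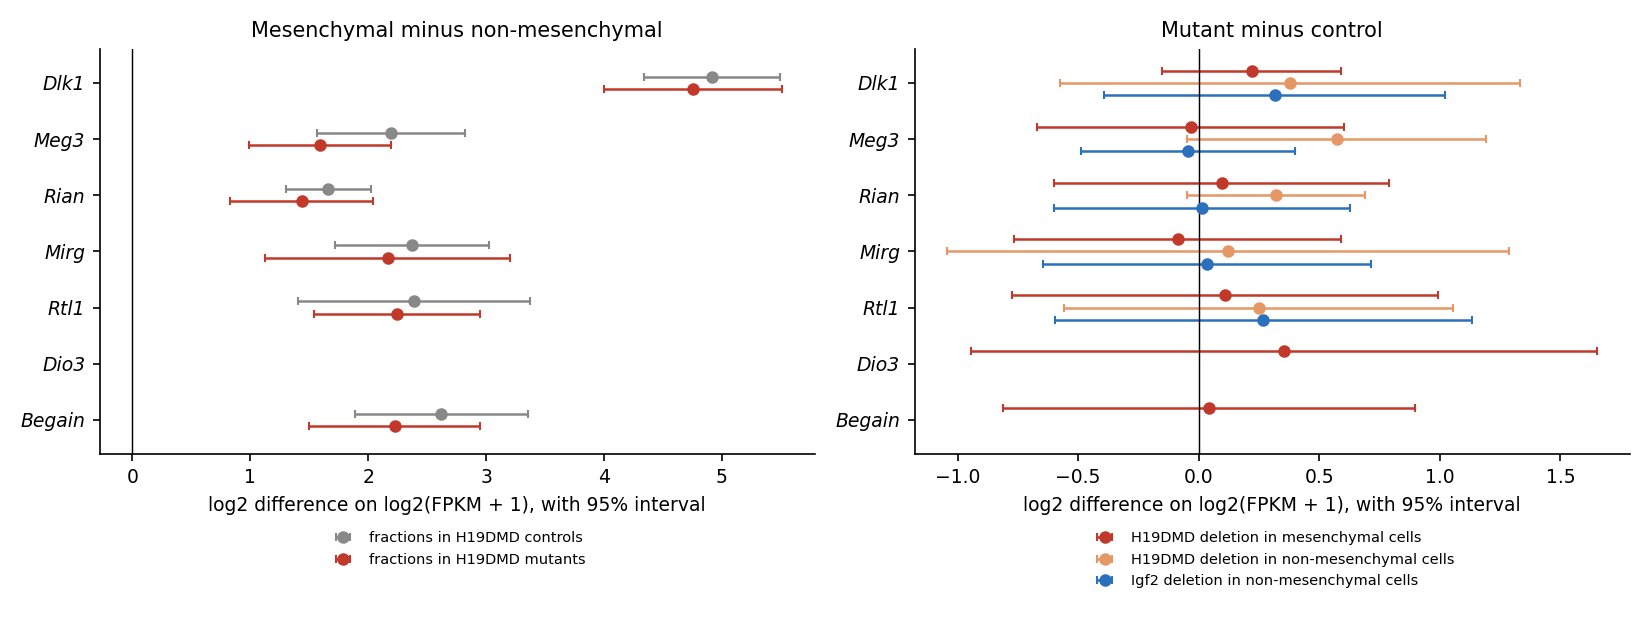
Log2 differences of the members on the log2(FPKM + 1) scale with limma 95% intervals, for mesenchymal minus non-mesenchymal cells (left) and mutant minus control (right, on a narrower axis). All intervals in the left panel lie above 0, all those in the right panel include 0, and genes below the 1 FPKM filter have no point. Begain passed the filter of the left panel through mesenchymal libraries alone, so its points there are a description, as is that of Dio3 in the right panel, which passed through mutants alone.

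The sorted fractions carried the markers of their labels. Acinar marker sums were 37362 to 100760 FPKM in non-mesenchymal libraries of the H19DMD table and 547 to 1736 FPKM in mesenchymal ones. In that table, the summed level of 10 mesenchymal markers was 4827 to 6274 FPKM in mesenchymal and 33.1 to 122 FPKM in non-mesenchymal libraries. Of these markers, Nkx3-2 was listed at 0 in every non-mesenchymal library. It averaged 0.440 FPKM in mesenchymal controls and 1.03 FPKM in mesenchymal mutants, with a lowest value of 0 in each. Nkx3-2 alone therefore did not separate the fractions. The ratio of mean levels between the fractions was 50.1 to 218 over the 8 of these markers for which it could be formed in controls, and 34.2 to 103 in mutants. The ratio of Dlk1 (31.0 and 25.9) was below each of those 8 markers, and that of Meg3 (4.57 and 3.05) further below. Other marker sums were also higher in mesenchymal libraries: smooth muscle and pericyte markers at 128 to 749 FPKM against 11.5 to 21.7 FPKM, mesothelial markers at 79.1 to 244 against 1.17 to 6.41 FPKM and endothelial markers at 68.7 to 110 against 15.6 to 37.1 FPKM. Their part in the members' levels was not tested. At the targeted locus, Igf2 was 7040 ± 800 FPKM in mesenchymal mutants (n = 4) and 3849 ± 189 FPKM in mesenchymal controls (n = 3), and H19 was 700 ± 123 FPKM against 2446 ± 8.11 FPKM, each without overlap (exact permutation p = 0.0286), as were 5.39% of all tested genes. Limma called H19 (log2 difference -1.82 ± 0.19, adjusted p = 0.0458) and did not call Igf2 (0.87 ± 0.21, adjusted p = 0.927).

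Because FPKM is per length, the level of Meg3 could be divided by that of Dlk1 within each library. In mesenchymal cells the ratio was 0.901, 0.643 and 0.927 in controls and 0.451, 0.793, 0.620 and 0.975 in mutants. In non-mesenchymal cells it was 4.50, 6.36 and 6.11 in controls and 4.39, 7.24, 12.04 and 4.26 in mutants. Every mesenchymal library held less Meg3 than Dlk1, and every non-mesenchymal library held more, so the fractions did not overlap in this ratio. The mean of log2((Meg3 + 1)/(Dlk1 + 1)) differed by -2.72 between mesenchymal and non-mesenchymal controls (exact permutation p = 0.1, the smallest possible) and by -3.17 in mutants (exact permutation p = 0.0286, and 0.143 when adjusted over the 5 comparisons made). In the Igf2 table the ratio was 8.34, 7.40, 9.06 and 4.59 in non-mesenchymal controls and 4.93, 5.38 and 6.28 in mutants, which overlap.

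**Figure D4:**
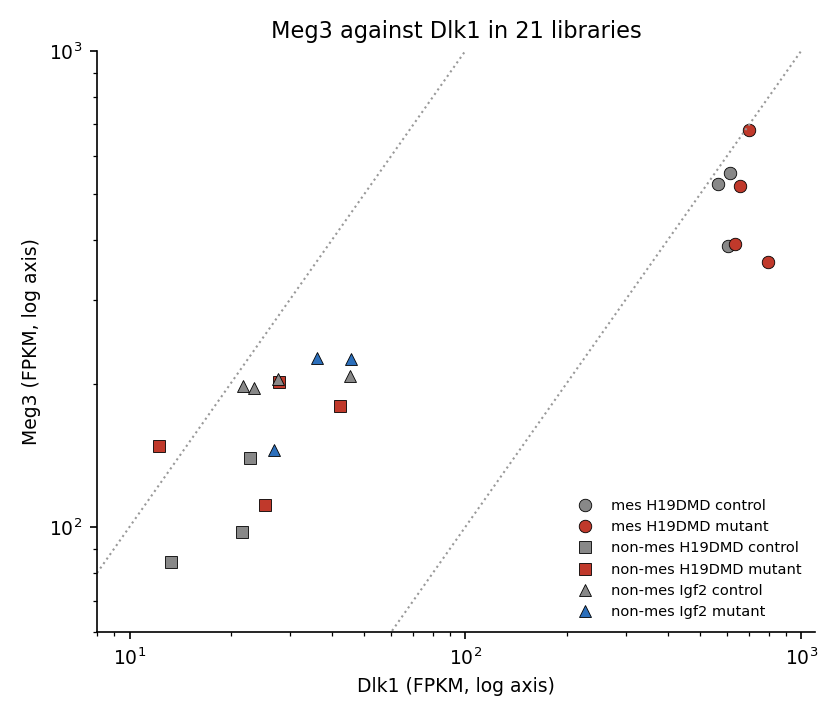
Level of Meg3 (vertical) against that of Dlk1 (horizontal) in 21 libraries, both in FPKM on log axes, with dotted lines at Meg3 to Dlk1 ratios of 1 and 10. The mesenchymal libraries lie at ratios of 0.451 to 0.975 and the non-mesenchymal libraries at 4.26 to 12.04, and the Igf2 table (triangles) was normalised separately.

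Proportions among the other members were formed in the same way. Rian stood at 0.639 ± 0.085 of Meg3 in mesenchymal controls (SD, n = 3) and 0.937 ± 0.209 in non-mesenchymal controls (n = 3), with values of 0.708 ± 0.166 and 0.780 ± 0.118 in the corresponding mutants (n = 4 each). Mirg stood at 0.0724 ± 0.013 and 0.0568 ± 0.013 of Meg3 in mesenchymal and non-mesenchymal controls. Rtl1 stood at 0.0274 ± 0.0088 of Dlk1 in mesenchymal controls and 0.118 ± 0.045 in non-mesenchymal controls. These proportions are given as a description and were not tested.

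Across the 7 libraries of 1 fraction and table, no relation between Dlk1, Meg3, Rian and Mirg passed adjustment. Pearson's r of log2(FPKM + 1) between Meg3 and Rian was 0.74 in mesenchymal libraries, 0.88 in non-mesenchymal libraries of the H19DMD table and 0.72 in the Igf2 table (exact permutation p = 0.0474, 0.0137 and 0.0506). The corresponding Spearman rho was 0.68, 0.93 and 0.50 (exact permutation p = 0.11, 0.00675 and 0.267), and r without the 2 libraries farthest from the median of Meg3 was 0.43, 0.86 and 0.44. Between Dlk1 and Meg3, r was -0.22, 0.54 and 0.49 (exact permutation p = 0.649, 0.21 and 0.273), with a rho of -0.14, 0.57 and 0.75 (exact permutation p = 0.783, 0.2 and 0.0663). Without the 2 libraries farthest from the median of Dlk1 it was 0.74, 0.76 and 0.32, so its sign in mesenchymal cells rests on those libraries. Dlk1 and Rian likewise went from -0.38 to 0.94 in mesenchymal libraries, and Rian and Mirg from 0.89 to 0.042, so the order of these relations there rests on the libraries left out. Over all 7 libraries the exact permutation p of r was 0.393 and 0.0198, and rho was 0.18 and 0.68 (exact permutation p = 0.713 and 0.11). Over the 18 relations computed, the smallest adjusted permutation p was 0.0893 for r, reached by 4 of the relations among Meg3, Rian and Mirg, and 0.121 for rho.

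The H19DMD deletion left no member past the threshold in mesenchymal cells. Dio3 averaged under 1 FPKM in controls and passed the filter through the mutants alone, so its values here are a description with no test. Of the other 6 members 0 were called, where 0.0694% of 15856 genes were called by limma and 755 had an unadjusted p under 0.05. The Dlk1 levels of the 4 mutants (634 to 798 FPKM) all lay above those of the 3 controls (566 to 615 FPKM), as did 1.62% of all tested genes, with 5.39% of genes not overlapping in either direction. Its log2 difference was 0.22 ± 0.16 (95% interval -0.15 to 0.59, limma adjusted p = 0.927, exact permutation p = 0.0571). The groups of the other 6 members overlapped. Meg3 differed by -0.03 (95% interval -0.67 to 0.60), Rian by 0.10 (-0.60 to 0.79), Mirg by -0.09 (-0.76 to 0.59), Rtl1 by 0.11 (-0.78 to 0.99) and Begain by 0.04 (-0.81 to 0.90) on the log2 scale. The intervals of all 6 include 0 and leave room for changes in both directions. The Dio3 difference of 0.35 was 0.018 without control replicate 1, which was listed at 0, and without mutant replicate 2, at 3.43 FPKM, Dio3 fell below the filter. Ductal marker sums did not overlap, at 34.9 to 80.8 FPKM in controls and 14.6 to 33.8 FPKM in mutants. Smooth muscle and pericyte sums were 451 to 749 FPKM (median 733) in controls and 128 to 674 FPKM (median 371) in mutants, and the part of these cells in the members' values was not tested.

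In the non-mesenchymal fraction of this model, 5 members were tested and 0 were called, against 0.0677% of 16239 genes and 868 genes at an unadjusted p under 0.05 by limma. Meg3 was above all controls in 3 of 4 mutants, with a log2 difference of 0.57 ± 0.26 (95% interval -0.05 to 1.19, limma adjusted p = 0.894, exact permutation p = 0.114). Rian was likewise above all controls in 3 of 4 mutants, by 0.32 ± 0.16 (-0.05 to 0.69, limma adjusted p = 0.894, exact permutation p = 0.0857). For Dlk1 the difference was 0.38 (-0.58 to 1.33), for Mirg 0.12 (-1.04 to 1.29) and for Rtl1 0.25 (-0.56 to 1.06). The Dlk1 value was 0.13 without mutant replicate 4, 0.14 without control replicate 2 and 0.70 without mutant replicate 3. Begain, listed at 0 in every control and at 0.183 to 0.562 FPKM in the mutants, did not overlap (exact permutation p = 0.0571) but lay below the filter, where 3.47% of the genes tested lay above all controls in every mutant and 5.68% were without overlap in either direction. Cell markers varied beside these values. The erythroid sum was 123 to 437 FPKM (median 132) in controls and 152 to 1706 FPKM (median 901) in mutants, the mesenchymal sum was 34.0 to 89.9 FPKM in controls and 33.1 to 122 FPKM in mutants, and the endocrine sum of 11 markers was 19959 to 30045 FPKM in controls and 11300 to 20544 FPKM in mutants. The part of the cell mixture in these values was not tested.

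The interaction term tested whether the effect of the deletion depended on the fraction. Of the 6 members that passed the filter, Begain did so through mesenchymal libraries alone, so its value here is a description with no test. Of the others 0 were called, where 0.0117% of 17105 genes were called and 1087 had an unadjusted p under 0.05 by limma. Among the other members, the estimate farthest from 0 was that of Meg3, -0.61 ± 0.39 (95% interval -1.45 to 0.24, limma adjusted p = 0.857). The value of Begain was -0.40, and it ran from -2.09 to -0.33 over the alternative settings. The median over all tested genes was -0.11 for this term and moved to -0.0048 with median-ratio scaling of the libraries, under which Meg3 stood at -0.47. The corresponding median for the fractions in controls moved from 0.08 to -0.03.

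In non-mesenchymal cells of the Igf2 model the members were read at the following levels, which are not tested against the H19DMD table. Dlk1 was read at 23.4, 27.6, 21.8 and 45.3 FPKM in controls (29.5 ± 10.8, n = 4) and at 45.6, 27.0 and 36.1 FPKM in mutants (36.3 ± 9.33, n = 3). Meg3 was read at 195, 205, 197 and 208 FPKM in controls (201 ± 5.87, n = 4) and at 225, 145 and 227 FPKM in mutants (199 ± 46.6, n = 3). The controls of Meg3 were close together, and the mutants lay on both sides of them. Rian was at 75.9 to 114 FPKM in controls and 68.6 to 133 FPKM in mutants, Mirg at 9.09 to 10.9 and 6.15 to 15.2 FPKM, Rtl1 at 2.37 to 4.03 and 2.14 to 7.37 FPKM, Begain at 0.369 to 1.40 and 0.371 to 0.983 FPKM and Dio3 at 0 to 1.11 and 0 to 0.511 FPKM.

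Of the members, 5 were tested in this model and 0 were called, where 0.0631% of 17441 genes were called and 921 had an unadjusted p under 0.05 by limma. All 7 members overlapped between groups, while 6.02% of tested genes did not. The log2 difference was 0.32 for Dlk1 (95% interval -0.39 to 1.02), -0.04 for Meg3 (-0.49 to 0.40), 0.01 for Rian (-0.60 to 0.63), 0.03 for Mirg (-0.65 to 0.72) and 0.27 for Rtl1 (-0.60 to 1.13). Leaving out each library moved the Dlk1 value to between 0.14, without mutant replicate 1, and 0.54, without control replicate 4. The second mutant library had the lowest Meg3, Rian, Mirg and Rtl1 levels of its table. It also had the lowest mesenchymal marker sum, 69.8 FPKM against 78.5 to 187 FPKM in the other 6 libraries. Its 3 highest features held 82.5% of its FPKM total, the largest share of the table. Its Dlk1 level of 27.0 FPKM was above those of 2 controls, at 21.8 and 23.4 FPKM. Control replicate 1, with a marker sum of 78.5 FPKM, held Meg3 at 195, Rian at 96.3, Mirg at 10.4 and Rtl1 at 3.26 FPKM. The cause of the low levels in this 1 mutant library was not tested. Acinar markers did not overlap in this comparison, with sums of 28283 to 41190 FPKM in controls and 83727 to 95435 FPKM in mutants, nor did leukocyte markers, at 288 to 471 and 480 to 715 FPKM, nor ductal markers, which were lower in mutants, at 950 to 1300 FPKM in controls and 780 to 948 FPKM in mutants. Their part in the members' values was not tested.

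Across the separately normalised tables, the order of the 6 groups by mean Dlk1 level was mesenchymal mutant, mesenchymal control, then the Igf2 mutant, Igf2 control, H19DMD mutant and H19DMD control of the non-mesenchymal fraction. Within the non-mesenchymal fraction neighbouring groups overlapped. For Meg3 the mesenchymal control and mutant means were 490 and 488 FPKM and their libraries overlapped, and the non-mesenchymal means ran from 107 to 201 FPKM.

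Genes around the domain were compared in the same way. Of 11 listed neighbours of chromosome 12, 10 were in the tables (Dio3os was not matched) and 9 were tested in controls. There Dync1h1, a dynein heavy chain, was higher in mesenchymal cells and 0 were lower. Over all genes 12.4% were called higher and 22.6% either way. The Dync1h1 level was 43.1 ± 9.13 against 24.2 ± 2.55 FPKM, a log2 difference of 0.79 ± 0.20 (limma adjusted p = 0.0395). In mutants 0 of 9 were higher, against 13.5% of all genes called higher and 28.6% either way. Wars, the tryptophanyl-tRNA synthetase, was lower by a log2 difference of -0.95 ± 0.27 (limma adjusted p = 0.032). Nothing is read from the counts of neighbours in either genotype. The median log2 difference of the neighbours in controls was -0.14, against 0.08 over all tested genes.

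Other imprinted genes that are often described as one growth network were compared in the same way. In controls 22 of the 25 listed were tested, of which 14 were higher in mesenchymal cells, 1 lower and 7 not called, with a median log2 difference of 1.98. Over all tested genes 12.4% were called higher, 22.6% were called either way and the median was 0.08. Plagl1, a zinc-finger transcription factor, was at 466 ± 70.6 against 12.1 ± 3.23 FPKM, and Cdkn1c, a cyclin-dependent kinase inhibitor, at 264 ± 54.3 against 7.49 ± 1.90 FPKM. The log2 differences of Plagl1 (5.17 ± 0.24) and Cdkn1c (4.97 ± 0.25) were close to that of Dlk1 and below those of Igf2 (6.29 ± 0.16) and H19 (6.34 ± 0.17). Rasgrf1 was the gene called lower, at 0.131 ± 0.125 against 4.14 ± 1.96 FPKM. Rasgrf1, and Magel2 among the higher genes, averaged under 1 FPKM in one fraction and passed the filter through the other, so these calls are no finding. Igf2r and Airn, both called higher, overlap on opposite strands and are uncertain for that reason. In mutants 16 of 21 were higher and 3 lower, with Rasgrf1 and Magel2 again under 1 FPKM in one fraction, against 13.5% of all genes called higher and 28.6% either way. H19, whose control region was deleted, was the only gene of the list called in a deletion comparison, in mesenchymal cells (limma adjusted p = 0.0458), where 0.0694% of all genes were called.

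Notch genes were listed because Dlk1 resembles Notch ligands. In controls 3 of 18 tested were higher in mesenchymal cells, 2 lower and 13 not called, near the 12.4% of all genes called higher and 22.6% called either way, so nothing is read from the counts. The receptor Notch3 was at 10.6 ± 3.60 against 0.922 ± 0.291 FPKM, the ligand Jag1 at 21.6 ± 6.22 against 6.00 ± 1.64 FPKM and the target Heyl at 16.9 ± 1.81 against 3.01 ± 0.321 FPKM. The ligand Dll1 was lower, at 0.361 ± 0.625 against 16.2 ± 4.68 FPKM, and so was the target Hes1, at 30.5 ± 4.52 against 125 ± 63.0 FPKM. Notch3 and Dll1 averaged under 1 FPKM in one fraction and passed the filter through the other, so their calls are no finding. In mutants 4 of 19 were higher and 2 lower, near the 13.5% of all genes called higher and 28.6% either way. Of the higher genes, Notch3, as in controls, and Notch4 passed the filter through one fraction alone. In the deletion comparisons 17 to 20 Notch genes were tested and 0 called, near the 0.0631 to 0.0694% of all genes, so nothing is read from this count either.

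Genes of adipocyte differentiation were listed for the known role of Dlk1 as an inhibitor of that process. Of 10 tested in controls, 5 were higher in mesenchymal cells, 1 lower and 4 not called, against 12.4% of all genes called higher and 22.6% either way. Zfp423, a transcription factor of preadipocytes, was at 35.8 ± 8.06 against 2.85 ± 2.18 FPKM and Lpl, lipoprotein lipase, at 107 ± 16.4 against 11.97 ± 0.825 FPKM, and the fat cell genes Fabp4 and Cebpd were also higher, by log2 differences of 2.32 ± 0.47 and 1.86 ± 0.44. Zfp521, a zinc-finger factor, was at 16.5 ± 1.52 against 2.37 ± 0.577 FPKM. Pparg, the central regulator of fat cell formation, was at 2.13 ± 0.140 against 1.49 ± 0.219 FPKM and was not called. Sox9, which is also a ductal marker, was lower, at 1.36 ± 0.812 against 51.6 ± 12.6 FPKM. In mutants 6 of 10 were higher and 2 lower, of which Cebpa passed the filter through one fraction alone, against 13.5% of all genes called higher and 28.6% either way. In the deletion comparisons 0 were called, against 0.0631 to 0.0694% of all genes.

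Genes of thyroid hormone handling were listed for Dio3. In controls, where 12.4% of all genes were called higher and 22.6% either way, the receptor Thra was higher in mesenchymal cells, at 49.5 ± 8.45 against 15.7 ± 4.86 FPKM, and so was the hormone-responsive factor Klf9, at 9.39 ± 1.77 against 2.66 ± 1.27 FPKM. The transporter Slc16a10 was lower, at 1.36 ± 0.643 against 19.6 ± 2.60 FPKM. In mutants Thra and Klf9 were again called higher and Slc16a10 lower, where 13.5% of all genes were called higher and 28.6% either way, and none of these 3 genes was called in a deletion comparison.

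The genes with the pattern most like that of Dlk1 over the 14 libraries of the H19DMD table, among 12702 genes ranked, were Figf, Bgn, Sparcl1, Nid2 and Col6a2. Their Pearson's r with Dlk1 was 0.993 to 0.995 on the log2(FPKM + 1) scale. For Meg3 they were Arhgef40, Rbms3, Mmp23, Trio and Sstr4, with an r of 0.978 to 0.985. These libraries form 2 clusters, the fractions, so r ranks genes by that contrast and is a description. In the 7 non-mesenchymal libraries of the Igf2 table the same genes had an r of 0.10 to 0.47 with Dlk1 and 0.35 to 0.77 with Meg3.

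Small RNAs of the domain could be followed only in part. The tables list 79 microRNA and small nucleolar RNA features in it, and 60.3 to 82.3% of their values per group were exactly 0. A feature could be listed at 0 in 1 library and at 10 FPKM or more in another library of the same group, which was so for 23 to 44 features per group. Limma called 7 of 53 tested features in the fractions of controls and 7 of 59 in those of mutants. It called 1 SNORD113 feature of 44 in the non-mesenchymal H19DMD comparison, where 0.0677% of all genes were called. In non-mesenchymal cells of the H19DMD table, 50 of the 79 features were at 0 in every control and 46 in every mutant. A feature could thus pass the filter through 1 group alone. This was not checked, so these calls are no finding. No level of a single small RNA is given, since short features have inflated and unstable FPKM.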

How the data were processed

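Cells were sorted from pancreas at postnatal day 2, and RNA was amplified from 2 ng with the Ovation RNA-seq V2 kit and sequenced as single 50-base reads, per the labels' protocols. TopHat2 2.0.8, Cufflinks 2.2.1 and the build GRCm38 are named, without a role, per the submitters' processing notes. The authors deposited FPKM values, per the file headers. The annotation release, the use of strand and scaling between libraries are not given in the sources used here. Of 31 samples, 21 had values and 10 were not analysed here, and 8 columns of the Igf2 table held no values. FPKM holds no read counts, so depth is unknown and no counting interval is given. Between 17476 and 20918 genes were above 0 per library, and the 3 highest features held 38.2 to 82.5% of the FPKM total. An exact 0 can be a failed estimate.

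From these values log2(FPKM + 1) was computed, and genes averaging 1 FPKM or more over the compared libraries were tested with limma 3.58.1 in R 4.3.3 (lmFit, eBayes with a variance trend, two-sided), adjusted by Benjamini-Hochberg at 0.05. Only the groups compared entered a fit. Exact permutation tests used scipy 1.17.1. The scripts were tested on simulated data. Named genes are all members, Igf2 and H19, the 5 genes most correlated with Dlk1 and with Meg3, and, of each list, up to 4 called genes with the largest log2 difference. Jag1, Rasgrf1, Magel2, Notch4, Cebpa, Fabp4, Cebpd and Pparg were named outside this rule, after their values were seen, as were the overlapping Igf2r and Airn. One listed gene is not reported here, and neither are counts that include it. The members and lists were chosen with earlier results of these data known. Alternatives were another pseudocount, no filter, median-ratio scaling, no variance trend, a replicate block, all groups in 1 fit and leaving out each library.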

Additional observations from a re-analysis of the deposited data

Results flagged for a closer look

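Dio3 had 1 library far from the other 3 of its group in 2 of the 24 sets of 4 libraries examined by Dixon's ratio, where chance alone marks about 1 in 20. Among mesenchymal H19DMD mutants, replicate 2 was read at 3.43 FPKM and the others at 0.380 to 0.706 FPKM. Among non-mesenchymal H19DMD mutants, replicate 1 was read at 0.381 FPKM and the others were listed at 0, which fixes the ratio at its highest value, so the chance rate does not apply to this set.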

How the results depend on the processing

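The calls of Dlk1, Meg3, Rian, Mirg and Rtl1 in each fraction comparison, and the 0 called in the deletion comparisons and the interaction, held under every alternative run, the leaving out of each library included. Fitting all groups together was not run for the Igf2 table, which has no other groups with values, nor for the interaction, which already uses them all. The number of related pairs was 0 under both alternatives.

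Same-numbered libraries were not shown to be pairs. The correlation of their deviations was -0.0506 to 0.0674 over 16 pairs, and the negative values were all between mutants and controls. Between the fractions each value was positive but small, at 0.0174 to 0.0674 in controls and 0.0074 to 0.042 in mutants. Of the mesenchymal libraries, 2 of 3 controls and 3 of 4 mutants correlated best with their own number. Whether the fractions of a number share an animal was not tested. The replicate block moved no count of members called. With the block the Meg3 to Dlk1 difference between fractions in mutants stayed at -3.17 with an exact permutation p of 0.125, because 4 pairs allow no smaller. Without non-mesenchymal H19DMD mutant replicate 3, that ratio's difference between mutants and controls turned to -0.10 (range without each library -0.10 to 0.38).

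Signs turned only for small differences that passed no test under any setting, and the cause was not tested. In the mesenchymal H19DMD comparison Meg3 was 0.047 with median-ratio scaling, and with the block Rian was -0.064, Rtl1 -0.13 and Begain -0.086. Leaving out each library gave -0.21 to 0.10 for Meg3, -0.064 to 0.35 for Rian, -0.28 to 0.11 for Mirg, -0.14 to 0.35 for Rtl1 and -0.18 to 0.32 for Begain. In non-mesenchymal H19DMD cells Mirg was -0.11 with the block and -0.11 to 0.55 without each library, and Rtl1 -0.076 to 0.54. In the Igf2 model Rian was -0.11 with the block and -0.20 to 0.27 without each library, Meg3 -0.15 to 0.17, Mirg -0.23 to 0.36 and Rtl1 -0.092 to 0.62. For the interaction the ranges were -0.48 to 0.092 for Dlk1, -0.38 to 0.025 for Rian, -0.64 to 0.022 for Mirg and -0.43 to 0.18 for Rtl1. Groups of 3 or 4 libraries and an unknown depth limit what could be detected.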
